A study of Rattus norvegicus with 3 samples.

Results

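A set of 10 genes of the hypoxia response and of angiogenesis were described in neonatal rat retina, chosen by name for these functions, with earlier results of these data known. They were the 2 genes of HIF alpha subunits Hif1a and Epas1, the HIF hydroxylase gene Egln3, the vascular endothelial growth factor genes Vegfa, Vegfb and Vegfc, the Tie2 ligand gene Angpt2, the peptide hormone gene Adm, and the 2 intracellular HIF targets Bnip3 and Ndrg1. All 10 were found by symbol among the 18425 genes of the deposited table. The retinas came from wild-type Sprague-Dawley rats that received 1 µl into the vitreous at postnatal day 1 (P1) and were collected at P4. The Buffer library came from eyes given citrate buffer at pH 4.5, the Saline library from eyes given saline, and the STZ library from eyes given 10 µg of streptozotocin, a DNA-alkylating glucosamine-nitrosourea made up in the same citrate buffer. By design, the injected fluids of STZ and Buffer differed in the compound alone, and those of STZ and Saline in the compound and its vehicle. For its P1 intravitreal injections the study describes STZ in right eyes and buffer in the left eyes of those animals. Whether the STZ and Buffer libraries came from such fellow eyes is not given, so eye side may differ as well. There was 1 library per group, so no difference below has a replicate check, no p-value was computed, and each ratio compares libraries rather than conditions. The number of eyes or animals behind each library is not given in the sources used here.

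In normal oxygen, prolyl hydroxylases such as the product of Egln3 mark the HIF alpha proteins for destruction by the von Hippel-Lindau complex. When oxygen is low the alpha subunits persist, pair with ARNT and switch on genes of glycolysis, mitochondrial clearance and vessel growth, with Egln3 itself among them. Control of HIF alpha is thus largely at the level of protein, which RNA libraries do not read. In the developing retina, VEGF released by astrocytes and neurons guides the spread of vessels from the optic nerve head, and the period of that spread includes the first postnatal week in rats.

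The levels are given as FPKM (fragments divided by transcript length and library size), with the estimated read counts behind them. Library totals were between 21977843 and 22031249 estimated reads, so depth was nearly equal. The fold is (FPKM + 1)/(FPKM + 1), and a gene was called above 1.54 or below 0.65. The added 1 pulls folds of weakly expressed genes toward 1. The count ratio divides the share of a library's reads held by a gene in one library by that in the other. Its 95% interval is exact (Clopper-Pearson, on rounded counts) and covers counting error only, since reads lacking molecular identifiers may be copies of one molecule. The 11 neural retina markers were present in every library and their FPKM had sums of 1737, 1670 and 1743 in the Buffer, Saline and STZ libraries.

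The 250 bases before the start site are shown for the members on which the results turn, namely Epas1 and Egln3, which passed a threshold, Vegfb, which stood higher in STZ than in both controls, and Bnip3, which differed between the controls. Sequences are from RefSeq on GRCr8, read 5′ to 3′ on the gene's strand, and the files themselves were mapped to rn6 by the submitters' processing notes. Capitals mark ACGTG or GCGTG, the core letters of the HIF-binding element, found on either strand.
Epas1, chr6:13624730-13624979, minus strand: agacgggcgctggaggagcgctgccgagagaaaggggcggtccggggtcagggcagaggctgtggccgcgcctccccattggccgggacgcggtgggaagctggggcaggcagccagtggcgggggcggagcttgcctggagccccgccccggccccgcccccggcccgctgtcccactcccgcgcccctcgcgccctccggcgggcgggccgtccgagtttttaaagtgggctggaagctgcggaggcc
Egln3, chr6:77411016-77411265, minus strand: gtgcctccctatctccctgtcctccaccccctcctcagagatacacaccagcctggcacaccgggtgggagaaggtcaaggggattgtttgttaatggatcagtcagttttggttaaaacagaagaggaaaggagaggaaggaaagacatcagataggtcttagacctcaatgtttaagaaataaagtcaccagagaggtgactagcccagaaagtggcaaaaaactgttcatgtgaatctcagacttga
Vegfb, chr1:213607153-213607402, minus strand: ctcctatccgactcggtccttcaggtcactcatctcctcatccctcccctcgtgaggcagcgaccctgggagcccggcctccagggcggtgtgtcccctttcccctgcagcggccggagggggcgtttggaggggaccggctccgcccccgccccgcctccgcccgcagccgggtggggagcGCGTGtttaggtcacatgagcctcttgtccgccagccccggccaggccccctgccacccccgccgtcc
Bnip3, chr1:203154963-203155212, minus strand: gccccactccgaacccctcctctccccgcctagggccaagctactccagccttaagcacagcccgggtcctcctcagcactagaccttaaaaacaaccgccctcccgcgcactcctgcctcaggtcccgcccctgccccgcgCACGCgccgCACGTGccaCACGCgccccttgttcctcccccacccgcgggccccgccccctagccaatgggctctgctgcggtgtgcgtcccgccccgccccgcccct
Bnip3 held 4 matches, 2 of GCGTG beginning 108 and 90 bases before the start and 2 of ACGTG at 99 and 98 bases, the last pair being the opposite strands of 1 CACGTG, which reads the same on both. Vegfb held 1 GCGTG, 68 bases before its start. Epas1 and Egln3 held none, as their windows are written entirely in lower case. Their base makeup differed, with 28 CG pairs in the Epas1 window and 1 in that of Egln3, against 22 for Vegfb and 23 for Bnip3. RefSeq windows were matched for 8 members, and 3 of these (Bnip3, Vegfb and Hif1a) held either motif within the 250 bases. The background was searched over a longer span, 250 bases before and 50 bases after the start. Among all 33469 windows of that span, 19.3% held ACGTG, 29.7% held GCGTG and 41.6% held either. Over the longer span, too, 3 members held either motif. A match is a run of letters and not a measured binding site, and its absence from these bases says nothing of HIF binding elsewhere.

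PCR primers for Bnip3, Vegfa and Vegfb came from the supplementary primer list and show which transcripts were read by RT-PCR, an assay not analysed here. Forward and reverse primers are both printed 5′ to 3′.
Bnip3 forward: aggcgtctgacaacttccac
Bnip3 reverse: ccaaggaccatgctagctct
Vegfa forward: tcttcctgcccaccatctac
Vegfa reverse: tggtaacccatgaccaggat
Vegfb forward: ggagaagagtggagcacagg
Vegfb reverse: atggcagctctgggagataa

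The 10 genes fell into 2 ranges of level. Ndrg1, Hif1a, Bnip3 and Vegfa stood above 110 FPKM in every library, ranking above 96.0% to 99.1% of the genes in the table. The other 6 stood below 20 FPKM in every library, and Vegfc was the lowest at 0.88 to 1.02 FPKM. The order of the 10 was the same in Buffer and STZ. In Saline it differed at 1 place, where Vegfa at 147 FPKM stood above Bnip3 at 110 FPKM.

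**Figure D1:**
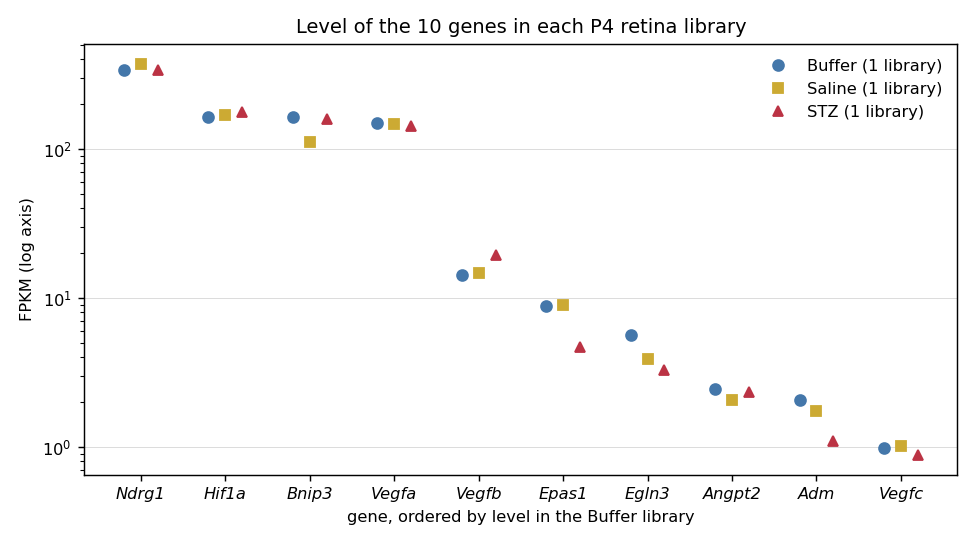
FPKM of each of the 10 genes on a log axis, with 1 point for each of the Buffer, Saline and STZ libraries. Epas1, Egln3 and Adm, and by smaller margins Vegfa and Vegfc, have their lowest point in STZ. Vegfb and, by a small margin, Hif1a have their highest there, and Bnip3 stands apart in Saline.

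Of the HIF alpha subunits, Epas1 in STZ stood at 0.525 of its Buffer count share while Hif1a stayed close to its control levels. Epas1 (NCBI gene 29452) encodes HIF-2 alpha, the subunit known for its abundance in endothelial cells and some glia. Its level was 8.86 FPKM in Buffer, 9.0 FPKM in Saline and 4.65 FPKM in STZ, from 487, 494 and 256 reads. The controls were thus nearly level, with a Saline to Buffer count ratio of 1.02 and an interval of 0.894 to 1.15. The folds in STZ were 0.573 relative to Buffer and 0.565 relative to Saline, both past the lower threshold. The count ratios were 0.525 (interval 0.449 to 0.612) and 0.517 (0.443 to 0.602). Both comparisons share the STZ library, so they are not separate evidence. In rank, Epas1 stood above 52.9% of all genes in each control and above 43.3% in STZ.

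Hif1a (gene 29560) encodes HIF-1 alpha, the subunit found in most cells. It had 13348 reads in Buffer, 13773 in Saline and 14329 in STZ, at 164, 170 and 177 FPKM. STZ was the highest library by a small margin, with folds of 1.07 over Buffer and 1.04 over Saline. The intervals of its count ratios excluded 1 for STZ over Buffer (1.05 to 1.10), for STZ over Saline (1.01 to 1.06) and also between the controls (1.01 to 1.06). In FPKM, which is per length, Hif1a was 18.6 times Epas1 in Buffer, 18.9 times in Saline and 38.0 times in STZ. RefSeq lists an overlapping gene at Hif1a, LOC120103553, which has no row in the table.

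Egln3 (gene 54702), the prolyl hydroxylase that is itself a HIF target, was highest in Buffer and lower in both other libraries. It had 322 reads in Buffer, 221 in Saline and 188 in STZ, at 5.66, 3.89 and 3.3 FPKM. The fold in STZ against Buffer was 0.646, just past the lower threshold of 0.65, and the count ratio was 0.583 (0.484 to 0.700). Against Saline the fold was 0.879 and the interval of the count ratio, 0.695 to 1.04, included 1. Saline against Buffer gave a fold of 0.734 and a count ratio of 0.687 (0.576 to 0.818). A difference of comparable size was thus present between both controls, and Egln3 did not pass against the Saline control.

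Among the VEGF ligands, the main one, Vegfa, differed little between libraries, and Vegfb was 1.34-fold higher in STZ than in Buffer. Vegfa (gene 83785), the principal driver of endothelial sprouting, had 8902 reads in Buffer, 8772 in Saline and 8346 in STZ, at 148, 147 and 142 FPKM. The folds in STZ were 0.955 and 0.961 over Buffer and Saline. Its count ratios were 0.936 (0.908 to 0.964) and 0.949 (0.921 to 0.978), so at this depth the STZ library was lower by more than counting error, though by a small amount. Between the controls the interval was 0.957 to 1.02.

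Vegfb (gene 89811), a ligand of FLT1 known for effects on vessel survival and fatty acid uptake, had 14.2 FPKM in Buffer, 14.6 FPKM in Saline and 19.3 FPKM in STZ. The controls did not differ beyond counting error, at a count ratio of 1.02 (0.882 to 1.17), and STZ stood above both. The folds were 1.34 over Buffer and 1.30 over Saline, under the threshold of 1.54. The count ratios were 1.34 (1.18 to 1.54) and 1.32 (1.16 to 1.51). Vegfb is the 1 member with fractional counts (395, 401 and 532 reads after rounding), so its interval leaves out the error of the read assignment.

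Vegfc (gene 114111), the ligand of FLT4 in lymphatic growth, rested on 29 reads in Buffer, 30 in Saline and 26 in STZ. No difference was detectable at this depth, as the interval of the count ratio in STZ against Buffer was 0.506 to 1.57. The 3 ligands together reached 164, 163 and 162 FPKM in Buffer, Saline and STZ. Vegfa made up 90.7%, 90.4% and 87.5% of that sum, and Vegfb 8.67%, 8.97% and 11.9%. The sum was therefore close between libraries, and the share of Vegfb was higher in STZ.

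Angpt2 (gene 89805), the context-dependent antagonist of the Tie2 receptor that loosens vessels for remodelling, had 110, 93 and 104 reads in the Buffer, Saline and STZ libraries. Its levels were 2.46, 2.08 and 2.32 FPKM, and the interval of each of its 3 count ratios included 1, for example 0.715 to 1.25 in STZ against Buffer. RefSeq places Angpt2 in overlap with Mcph1, which is also in the table. Whether reads were counted by strand is not given in the sources used here, so reads of this pair may not be told apart.

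Adm (gene 25026), the vasodilator peptide adrenomedullin, was, with Epas1, a member whose count ratio in STZ lay near 0.5 against both controls, although it passed no threshold. It had 57 reads in Buffer, 51 in Saline and 29 in STZ, at 2.05, 1.73 and 1.1 FPKM. The folds of STZ over Buffer and over Saline were 0.689 and 0.769, with count ratios of 0.508 (0.313 to 0.808) and 0.567 (0.347 to 0.912). These intervals exclude 1 but are wide, since STZ holds few reads. The deposited FPKM of Adm do not follow its counts exactly, and the ratio of FPKM in STZ against Saline, 0.636, was 12.1% above the count ratio.

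Bnip3 (gene 84480), a mitochondrial receptor for mitophagy and a classic HIF-1 target, differed between the controls and not between STZ and Buffer. It had 4966 reads in Buffer, 3357 in Saline and 4863 in STZ, at 163, 110 and 159 FPKM. Saline was the low library. The count ratio of Saline against Buffer was 0.676 (0.647 to 0.707), that of STZ against Saline was 1.45 (1.38 to 1.51), and that of STZ against Buffer was 0.978 (0.939 to 1.02). The folds of 0.679 and 1.44 passed no threshold. Bnip3 thus stood higher in STZ by one control and level with it by the other.

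Ndrg1 (gene 299923), a stress-responsive cytoplasmic protein gene that HIF and other factors raise, was the most abundant member, at 337 FPKM in Buffer, 373 FPKM in Saline and 338 FPKM in STZ. Saline was the highest library, by a count ratio of 1.11 (1.08 to 1.13) over Buffer. STZ and Buffer were level, at 1.00 (0.984 to 1.02), and STZ was below Saline at 0.908 (0.890 to 0.925). Ndrg1 and Bnip3, both HIF targets of high level, therefore stood on opposite sides of Buffer in Saline. Ndrg1 moved from above to below 1 in STZ against Buffer when libraries were scaled by TMM (0.975) or by median-of-ratios factors (0.977).

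**Figure D2:**
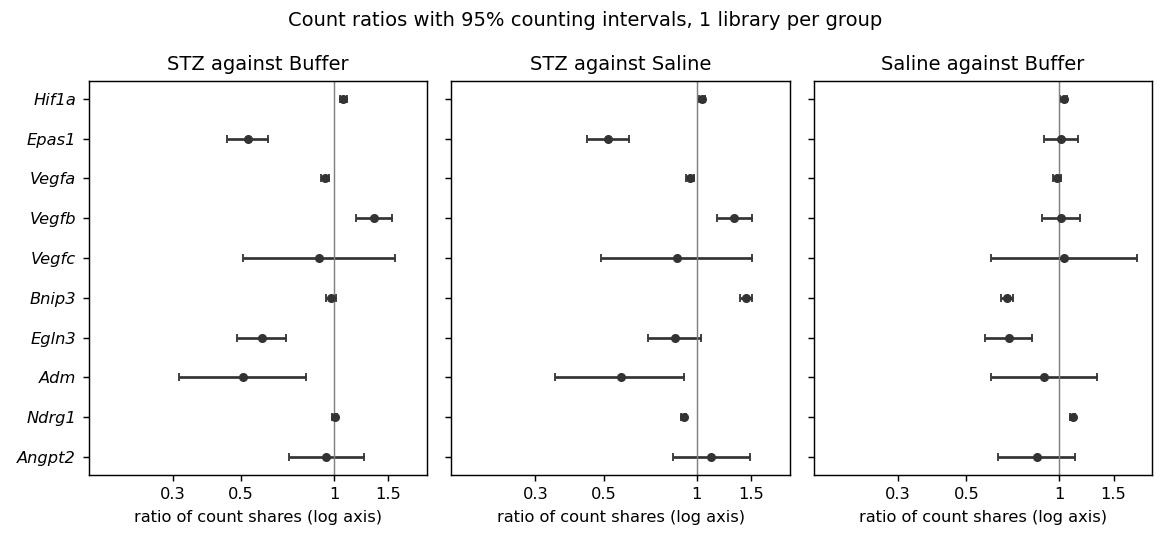
Count ratio of each of the 10 genes (log axis) with its 95% counting interval, for each pair of the 3 libraries, with 1 library per group. Epas1 stands below 1 in both STZ comparisons and near 1 between the controls, while Bnip3 and Egln3 stand below 1 between the controls.

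Counted over the members, 0 were above the upper threshold in STZ against Buffer, where 2.25% of all 18425 genes were, and 2 (Epas1 and Egln3) were below the lower one, where 1.04% of all genes were. In STZ against Saline, 0 were above (2.04% of all genes) and 1, Epas1, was below (1.75%). In Saline against Buffer, 0 were above (1% of all genes) and 0 below (0.429%). Both counts of lower members in STZ were above their background share and rest on Epas1 and, against Buffer alone, Egln3. That share takes in weakly expressed genes, whose folds the added 1 pulls toward 1.

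By the counting interval, the count ratio of STZ to Buffer was above 1 for 2 members (21.7% of all genes) and below 1 for 4 (15.5%). For STZ against Saline it was above 1 for 3 (22.1%) and below for 4 (19.5%), and for Saline against Buffer above for 2 (13.3%) and below for 2 (9.81%). The counts of higher members were near their background and those of lower members above it, with no test of either. That background takes in genes of few reads, whose wide intervals seldom exclude 1. Hif1a, Vegfa, Bnip3 and Ndrg1 had 3357 reads or more in every library, where small differences exclude 1. Members and background were thus not matched for depth. The same shares and limit stand behind the interval counts of the gene lists below. The median log2 fold of the members was -0.06 for STZ over Buffer, -0.08 for STZ over Saline and 0.01 between the controls, where the median of all genes was 0.02, 0 and 0.01. The members lay on both sides of 1, with 3 above and 7 below in STZ over Buffer (2 and 8 under TMM or median-of-ratios scaling) and 4 above and 6 below in STZ over Saline, so these medians do not describe the single genes.

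Of the 14 HIF regulators and partners, 0 passed a fold threshold in either STZ comparison, and their median log2 fold was -0.02 against Buffer and -0.15 against Saline. The partner gene Arnt had 1520 reads in Buffer, 1664 in Saline and 1433 in STZ. Vhl, which encodes the recognition subunit of the ligase, had 1586, 1646 and 1407 reads, a count ratio of 0.886 (0.824 to 0.952) in STZ against Buffer. Egln1, encoding the main oxygen-sensing hydroxylase, differed from Egln3 in pattern, with 27.8 FPKM in Buffer, 22.7 in Saline and 26.3 in STZ. Egln2 and the asparagine hydroxylase gene Hif1an stood at folds of 1.00 and 0.974 in STZ over Buffer. By the counting interval, 4 of the 14 were lower and 0 higher in STZ than in Buffer. Against Saline, 9 were lower and 2 higher. In Saline against Buffer, 8 were higher and 1 lower, and 1 passed the upper fold threshold, the HIF inhibitor gene Hif3a. It had 6, 34 and 11 reads, a count ratio of 5.67 (2.35 to 16.5) between the controls and 0.323 (0.148 to 0.652) in STZ against Saline. The coactivator gene Crebbp had 3671, 4300 and 3435 reads and the CBP-binding inhibitor gene Cited2 had 2224, 2362 and 1907, at ratios of 0.797 and 0.805 against Saline. These 3 genes were named after their values were seen, and all 3 were highest in Saline.

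The 19 HIF targets of glucose use held 0 genes past a threshold in STZ against Buffer, with a median log2 fold of -0.03. Slc2a1, the gene of the GLUT1 glucose transporter, had 203 FPKM in Buffer, 182 FPKM in Saline and 139 FPKM in STZ. Its count ratio in STZ was 0.688 (0.668 to 0.709) against Buffer and 0.765 (0.742 to 0.789) against Saline, so STZ was below both controls. The glycolytic genes Pgk1 and Ldha stood at folds of 0.892 and 0.954 over Buffer. By the interval, 5 of the 19 were higher and 9 lower in STZ than in Buffer.

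Against Saline more of the same 19 genes were higher, with 13 higher (22.1% of all genes) and 5 lower (19.5%) by the interval. The median log2 fold was 0.15, and 1 gene, Hk2, was past the upper threshold. The 5 lower genes, Slc2a1, Pfkp, Aldoc, Pgk1 and Eno1, were lower in STZ than in Buffer as well. Of these, Pfkp, Aldoc and Eno1 were named after their values were seen. Between the controls, 12 were lower and 2 higher in Saline, with a median of -0.13, and 2 passed the lower threshold. These were the lactate exporter gene Slc16a3, at 66.6 FPKM in Buffer, 34.7 FPKM in Saline and 50.5 FPKM in STZ, and the hexokinase gene Hk2, at 18.2, 11.0 and 19.8 FPKM. Both were named after their values were seen. Their lowest library was Saline, as it was for Bnip3. The 3 comparisons share libraries in pairs, so a low Saline library alone places a gene higher in STZ against Saline.

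The 29 other HIF targets repeated this arrangement. In STZ against Buffer, 1 passed the upper and 1 the lower threshold, 4 were higher and 8 lower by the interval, and the median log2 fold was -0.07. Against Saline, 1 passed each threshold, 14 were higher and 3 lower by the interval, and the median was 0.07. In Saline against Buffer, 0 passed the upper and 1 the lower threshold, 2 were higher and 13 lower by the interval, and the median was -0.12. The gene lower in Saline was P4ha1, a collagen prolyl hydroxylase gene, at 75.6 FPKM in Buffer, 48.6 FPKM in Saline and 65.1 FPKM in STZ, named after its values were seen. The genes past in STZ against both controls were Hmox1, the heme oxygenase gene that oxidative stress also induces, and Ddit4, an inhibitor of mTORC1. Hmox1, with 233, 216 and 509 reads, was at a fold of 2.05 over Buffer, and Ddit4, with 5072, 4767 and 2975 reads, at 0.588. The 2 targets thus differed in opposite directions. Bnip3l, the close relative of Bnip3, had 6058, 5739 and 5820 reads and did not share the low Saline level in size. Epo had 3 reads in Buffer, 4 in Saline and 0 in STZ, too few for a ratio.

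**Figure D3:**
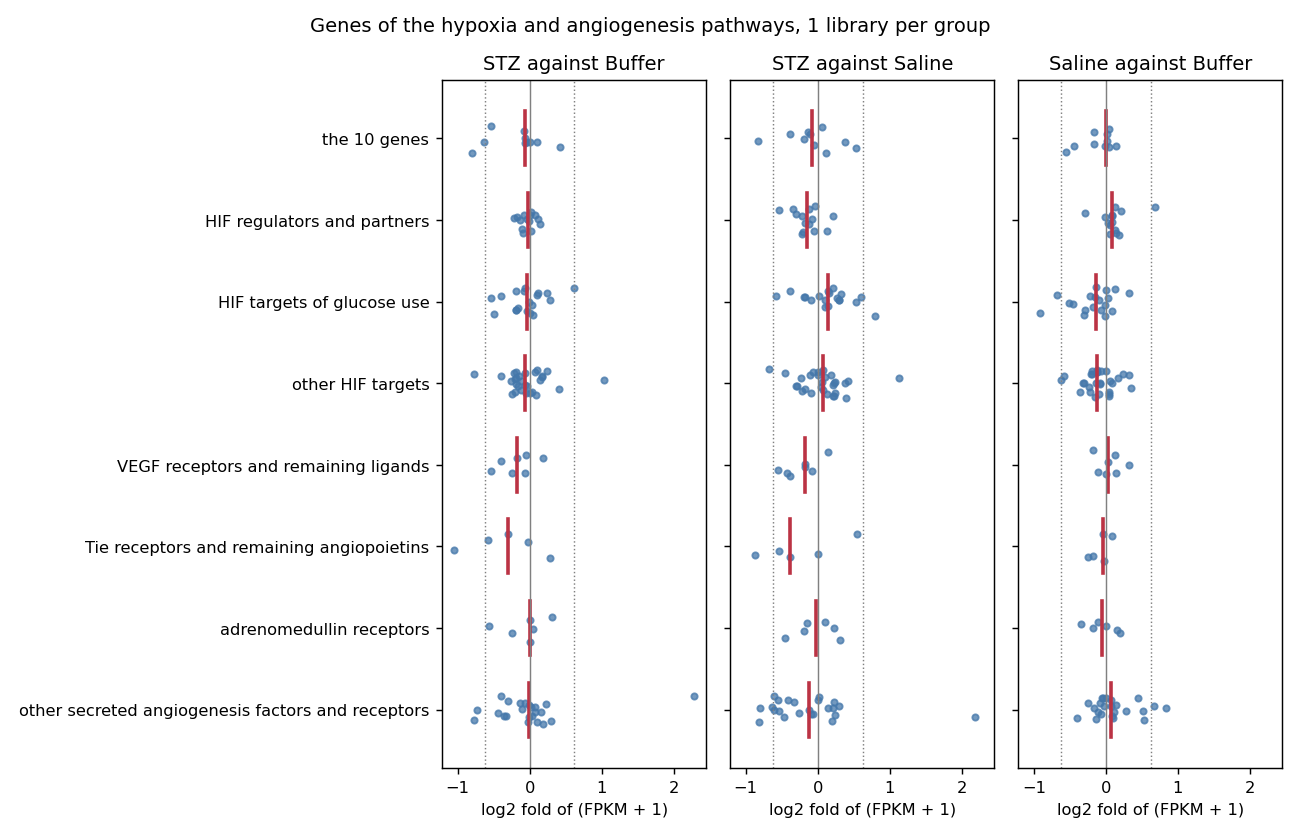
Log2 fold of (FPKM + 1) for each gene (points) of the 10 members and of 7 lists of the same pathways, with the list median as a red bar and the thresholds 1.54 and 0.65 as dotted lines. Both lists of HIF targets have medians below 0 in Saline against Buffer and above 0 in STZ against Saline, and the VEGF and Tie receptor lists have medians below 0 in both STZ comparisons.

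The receptors of the VEGF ligands differed among themselves in STZ. Of the 7 VEGF receptors and remaining ligands, 0 passed a fold threshold in any of the 3 comparisons, with a median log2 fold of -0.18 in both STZ comparisons and 0.04 between the controls. By the interval, 1 was higher and 4 lower in STZ than in each control, and 1 higher and 1 lower between the controls. Kdr, the main signalling receptor for VEGF-A, which retinal progenitors also express, had 13149 reads in Buffer, 14564 in Saline and 9972 in STZ, which gave folds of 0.759 over Buffer and 0.685 over Saline. Flt4, the VEGF-C receptor of sprouting and lymphatic endothelium, had 50, 40 and 6 reads, a count ratio of 0.120 (0.0420 to 0.280) against Buffer, although its fold at these low FPKM was 0.690. Flt1, the decoy receptor that also binds VEGF-B, had 590, 510 and 493 reads, for a count ratio of 0.834 (0.739 to 0.942) in STZ against Buffer. Its interval included 1 against Saline (0.850 to 1.09) and lay below 1 between the controls (0.767 to 0.975), so Flt1 was lower in both other libraries than in Buffer. Nrp1, a co-receptor, had 1723, 1722 and 1535 reads. Nrp2, a further co-receptor, went the other way, with 666, 672 and 785 reads and intervals of 1.06 to 1.31 over Buffer and 1.05 to 1.29 over Saline, and was named after its values were seen. Kdr, Flt4 and Nrp1 were thus lower in STZ than in both controls by more than counting error, and Nrp2 was higher.

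Of the 5 Tie receptors and remaining angiopoietins, 1 passed the lower and 0 the upper threshold in each STZ comparison, and 0 passed between the controls. The 1 gene was Tie1, an endothelial receptor, at 174 reads in Buffer, 144 in Saline and 43 in STZ, with folds of 0.483 over Buffer and 0.546 over Saline. Tek, which encodes the Tie2 receptor of ANGPT2, was lower as well, at 0.88 FPKM in Buffer, 0.83 FPKM in Saline and 0.26 FPKM in STZ and a fold of 0.670. Angpt1, the Tie2 agonist gene, had 48, 30 and 67 reads, and its interval included 1 against Buffer (0.948 to 2.06) and not against Saline (1.43 to 3.55). By the interval, 3 of the 5 were lower in STZ than in each control, and 0 differed between the controls. The list median was -0.30 against Buffer, -0.39 against Saline and -0.04 between the controls.

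Of the 6 adrenomedullin receptor genes and related genes, 0 passed a threshold in any comparison and the median log2 fold lay between -0.05 and 0.00. Ramp2, the endothelial co-receptor of adrenomedullin, had 87, 81 and 56 reads, for a count ratio of 0.643 (0.451 to 0.909) in STZ against Buffer. Calcrl, the receptor itself, had 49, 33 and 38 reads, with an interval of 0.493 to 1.21. Among 23 other secreted angiogenesis factors and receptors, 1 was past the upper and 2 past the lower threshold in STZ over Buffer, 1 and 3 in STZ over Saline, and 2 and 0 between the controls. The median log2 folds were -0.01, -0.12 and 0.07. Angptl4, a HIF- and PPAR-responsive inhibitor of lipoprotein lipase, was the gene above the upper threshold in both STZ comparisons, at 77 reads in Buffer, 85 in Saline and 515 in STZ and a fold of 4.88 against Buffer. The genes past the lower threshold in STZ against Buffer were Apln and its receptor gene Aplnr, with folds of 0.602 and 0.588, named after their values were seen. Neither passed against Saline, at folds of 0.796 and 0.658, and Apln was already lower in Saline than in Buffer, with 104, 63 and 38 reads and a ratio of 0.606 (0.436 to 0.837) between the controls.

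The summed levels of endothelial, astrocyte and pericyte markers were lower in the STZ library than in both controls, as were Epas1 and Adm. In these bulk samples, fewer cells of a type and less RNA per cell cannot be told apart. The 15 endothelial markers had summed levels of 20.9, 19.8 and 7.49 FPKM in Buffer, Saline and STZ, with 1, 0 and 1 markers at 0. Of the 15, 0 passed the upper and 4 the lower threshold in STZ over Buffer, 0 and 3 in STZ over Saline, and 0 and 0 between the controls. The junction genes Cldn5 and Cdh5 had 188 and 119 reads in Buffer, 154 and 114 in Saline, and 37 and 28 in STZ. Pecam1 had 40, 40 and 21 reads. The summed endothelial FPKM in STZ was 0.358 of Buffer, a lower ratio than that of Epas1, 0.525. Without Cldn5, the most abundant of the list, the other 14 summed to 13.8, 13.9 and 6.09 FPKM. Count ratios of single markers in STZ against Buffer stood on both sides of Epas1, for example Cldn5 at 0.196 and Esam at 0.710.

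The 5 astrocyte markers summed to 14.7 FPKM in Buffer, 16.3 FPKM in Saline and 7.59 FPKM in STZ, with 0 at 0. Of them, 3 passed the lower threshold when STZ was set against Buffer, 4 when it was set against Saline and 0 between the controls, and 0 passed the upper. Pdgfra, the receptor of migrating retinal astrocytes, had 650, 581 and 269 reads, and Gfap had 338, 410 and 214. The 10 pericyte markers summed to 19.3, 17.0 and 12.2 FPKM, with 0 at 0, and 3, 2 and 0 passed the lower threshold in the 3 comparisons (STZ over Buffer, STZ over Saline, and Saline over Buffer), with 0 past the upper. Pdgfrb, the receptor that recruits pericytes, had 203, 172 and 74 reads. In STZ over Buffer, 7 of the 10 stood below 1 and 3 above, and by the interval 5 were lower and 1 higher. The higher one was Myh11, a smooth muscle myosin gene, with 317, 230 and 406 reads and intervals of 1.10 to 1.49 over Buffer and 1.49 to 2.08 over Saline, named after its values were seen. Without Rgs5, the most abundant of the list, the other 9 summed to 11.5, 10.6 and 9.05 FPKM. The endothelial, astrocyte and pericyte markers thus had their lowest sums in STZ, and their part in the lower levels of Epas1, Adm, Tie1, Tek and Flt4 was not tested.

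Other lists moved in other ways. The 14 microglia markers, with 0 at 0, summed to 78.8 FPKM in Buffer, 99.0 FPKM in Saline and 237 FPKM in STZ, and 12, 12 and 1 passed the upper threshold in the 3 comparisons in the same order, with 0 past the lower. Aif1 had 86, 95 and 273 reads and Tyrobp 36, 63 and 180. The 12 lens markers, with 1, 0 and 0 at 0, summed to 16.6, 43.1 and 278 FPKM, and 8, 6 and 8 passed the upper threshold and 0 the lower. Microglia and lens RNA thus stood highest in STZ, where Vegfb, Hmox1 and Angptl4 also stood highest, and their part in these results was not tested.

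Saline differed from Buffer in markers of neighbouring tissue. The 6 ciliary and iris markers, with 0 at 0, summed to 56.4 FPKM in Buffer, 206 FPKM in Saline and 54.0 FPKM in STZ. Of them, 3 passed the upper threshold in Saline against Buffer, 4 passed the lower in STZ against Saline, and 0 passed either in STZ against Buffer. The 9 pigment epithelium markers, with 1, 0 and 0 at 0, summed to 165, 180 and 133 FPKM, of which Rlbp1, a gene that Müller glia also express, made up 155, 146 and 122. The other 8 summed to 10.3, 34.4 and 11.4 FPKM and so stood highest in Saline. Of the 9, 5 passed the upper threshold in Saline against Buffer, 4 the lower in STZ against Saline and 0 either in STZ against Buffer. The 8 blood markers, with 2, 0 and 1 at 0, summed to 178, 253 and 130 FPKM. Of these, 1 passed each threshold in STZ against Buffer, 4 the lower in STZ against Saline and 1 the upper in Saline against Buffer. Of the 11 neural retina markers, 1 passed the upper threshold in STZ against Saline and 0 any other. The ciliary and iris markers, the other 8 pigment epithelium markers and the blood markers thus had their highest sums in Saline. Bnip3 was lowest in Saline, and 12 of the 19 glucose-use targets were lower there than in Buffer by the interval. Egln3 was also lower in Saline than in Buffer but was lowest in STZ. The part of the 3 marker lists in those differences was not tested.

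**Figure D4:**
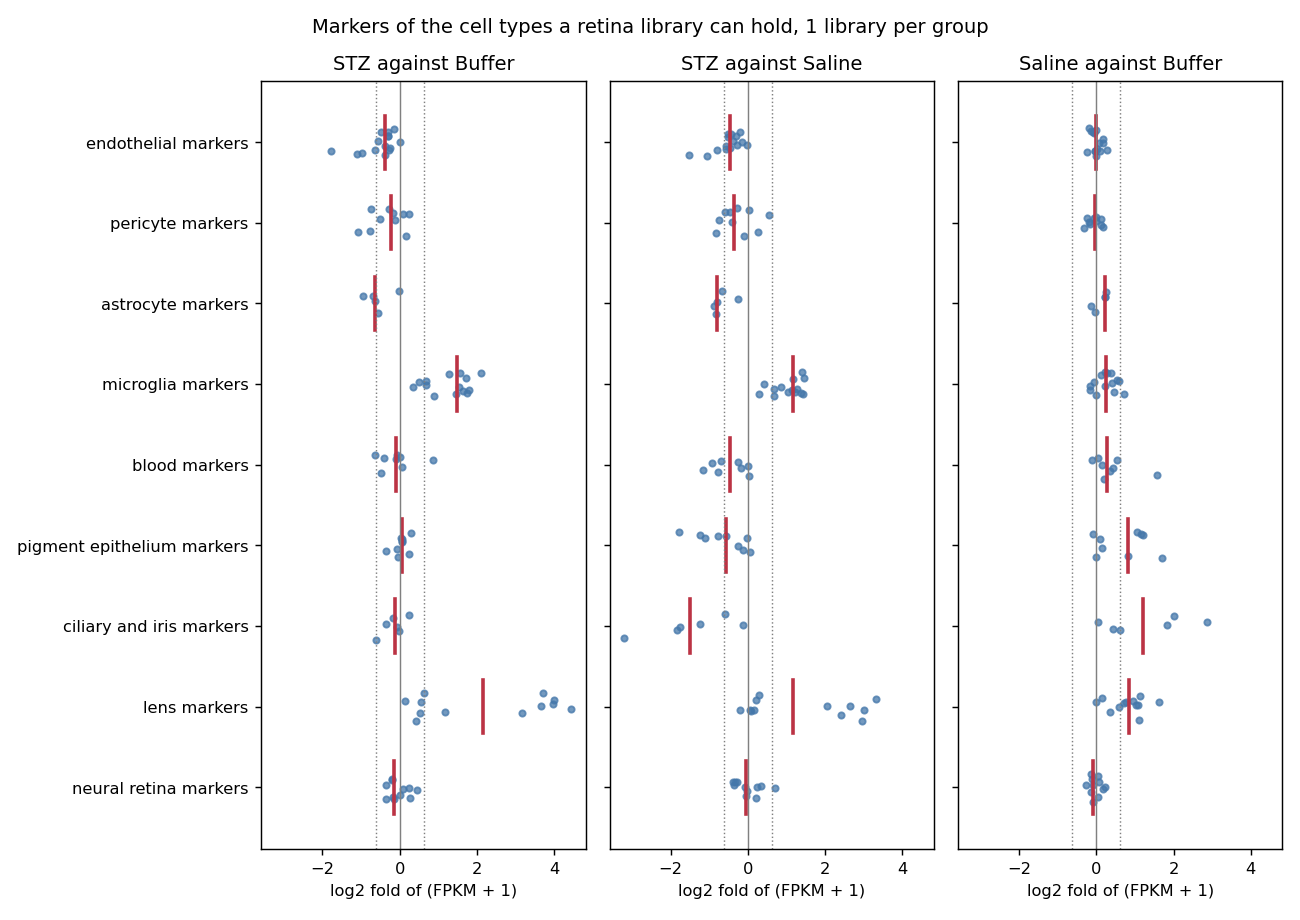
Log2 fold of (FPKM + 1) for each marker gene (points) of 9 cell types or tissues in the 3 comparisons, with the list median as a red bar and the thresholds 1.54 and 0.65 as dotted lines. Endothelial, pericyte and astrocyte medians lie below 0 in both STZ comparisons, microglia and lens medians above 0, and ciliary and iris medians above 0 in Saline against Buffer.

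The genes nearest in pattern to Epas1 and Egln3 were sought among the 11801 genes averaging 100 reads or more, by Euclidean distance over the log2 ratios of Saline and STZ to Buffer, which rests on 3 libraries. Within a distance of 0.1 of Epas1 were 3 genes. They were LOC100361083 with 479, 480 and 250 reads, Zbed6 with 2516, 2567 and 1235 reads, and Ccdc187 with 2160, 2212 and 1216 reads. For Egln3 the nearest were Pgap1 with 629, 459 and 370 reads, Pomp and LOC100911224, of which 1 lay within 0.1. Few genes therefore shared either pattern that closely, and 3 libraries do not separate likeness from counting error.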

How the data were processed

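RNA of 3 rat retina libraries, 1 per group, was sequenced. Per the study's methods, libraries were made with an Illumina TruSeq RNA kit and reads were trimmed, mapped with TopHat2 allowing up to 2 mismatches, and dropped when they had more than 1 location. The submitters' processing notes name FastQC, TopHat2 and rn6, and the annotation and counter are not given in the sources used here. For each gene, the authors deposited an FPKM from their own R script, a TPM, and an estimated count that is fractional for 2858 of 18425 genes. The series table and the tables per library held the same values, and no column was left unmapped.

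From these, folds of FPKM + 1 (thresholds 1.54 and 0.65, as in the study's methods) and count ratios with exact 95% intervals were computed with Python 3.11.15, numpy 2.4.6, pandas 2.3.3 and scipy 1.17.1. Counts were rounded to whole numbers for intervals only. The calculation was tested on simulated counts that held counting error alone, for the direction of large fold changes and the coverage of the intervals. That simulation did not test the thresholds or the spread between libraries. TMM factors of edgeR 4.0.16 and median-of-ratios factors of DESeq2 1.42.0 (R 4.3.3) served as alternative scalings, and no count model was fitted. Medians were taken over every listed gene. The alternatives were another pseudocount, other thresholds, CPM or TPM in place of FPKM, a minimum mean of 10 counts, the counting interval as the call rule, and a control averaged over Buffer and Saline. List sums without the most abundant gene were added after seeing the data. Figures were drawn with matplotlib 3.10.9.

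The members and the 16 gene lists (193 genes) were chosen with earlier results of these data known. The genes named were the 10 members, a preset selection of pathway and marker genes, at most 4 genes a list past the same threshold against Buffer and against Saline at a mean count of 10 or more, and the 3 nearest in pattern to each member past a threshold in STZ against Buffer. Others are said to have been named after their values were seen.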

Additional observations from a re-analysis of the deposited data

How the results depend on the processing

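No paired analysis was possible because there is 1 library per group, and for the same reason no replicate could be left out. In STZ against Buffer, 2 members passed a fold threshold, and 1 did with the mean of both controls (Epas1, with Egln3 at 0.745), 0 with thresholds of 2 and 0.5, and 6 by the counting interval. A pseudocount of 0.1, CPM or TPM each gave 3, as Adm joined at folds of 0.558, 0.645 and 0.630. In STZ against Saline the 1 member became 0 with thresholds of 2 and 0.5 and 7 by the counting interval, and in Saline against Buffer the 0 became 4 by the counting interval. Of 160 alternatives for the folds of single members, 154 were labelled as within the counting error of the reported value, 6 moved beyond it and 0 reversed a called direction. The 154 included Egln3 in STZ against Buffer, at 0.745 with the mean of both controls. That value lost the call and lay above the interval of the count ratio, 0.484 to 0.700. The 6 were Hif1a (1.04 by TMM and 1.05 by median-of-ratios scaling), Bnip3 (1.16 against the mean of both controls) and Ndrg1 (0.975, 0.977 and 0.953 under those 3 settings), in STZ against Buffer, and the cause was not tested. Depth limited Vegfc, Adm and Angpt2, which had at most 110 reads in a library, and the spread between animals is unknown.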
